A study of Mus musculus with 50 samples.

Results

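The CXC chemokines are small secreted proteins, named for the spacing of their first cysteines, that bind receptors on other cells and guide their movement. Cxcl1, Cxcl2, Cxcl5 and Cxcl15 belong to the branch that attracts neutrophils, for which Cxcr2 is the main receptor. Cxcl9 and Cxcl10 are interferon-induced ligands of Cxcr3 on T cells and natural killer cells. Cxcl12 signals through Cxcr4 and is taken up by the atypical receptor Ackr3. Cxcl16 is made as a membrane-bound protein, binds Cxcr6 and is shed by metalloproteinases, and Cxcl14 is a chemokine of epithelia. In colon tumours, such ligands are known for drawing neutrophils and for contact between epithelium and stroma.

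Described here are all probe sets (groups of short array probes read as 1 value) whose only gene symbol was 1 of these 9 ligands. They were 9 genes of the 18193 with such a probe set, and 17 probe sets of 34945. The study measured polysomal RNA, the RNA bound by several ribosomes, on 50 Affymetrix mouse arrays, 10 for each of 5 groups. The cells were young adult mouse colon (YAMC) epithelial cells from the H-2Kb/tsA58 mouse, which carries a temperature-sensitive simian virus 40 large T antigen (tsA58) driven by an interferon gamma-inducible promoter. YAMC is the parental population. The bleo/Neo population received both empty retroviral vectors. The mp53 population received p53175H, a mutant p53, with the empty Neo vector. The Ras population received activated RasV12 with the empty Bleo vector, and the mp53/Ras population received p53175H and RasV12. All 5 populations spent 48 h at 39 °C, where large T is unstable, with no interferon gamma, and a further 24 h in 0% serum. For each array 5 µg of RNA was labelled. The vector populations are polyclonal, and each of them exists once, so the effect of an allele and the history of its population cannot be told apart. Nothing in the labels says that replicates came from separate cultures, so p-values measure the spread between these arrays, which may be technical.

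Values are log2 of the deposited intensity, and levels are compared between groups within a probe set only. The medians of the arrays lay between 86.4 and 86.7 on the linear scale. By their profile over all genes, 46 of 50 arrays lay nearest their own group. The exceptions were YAMC replicate 2 and Ras replicate 10, which lay nearest mp53, mp53 replicate 8, which lay nearest YAMC, and mp53 replicate 10, which lay nearest Ras. Values without these arrays are given for some differences, not for every one that they change. Of the epithelial markers, Krt8, Krt18 and Epcam were above the table's median (log2 6.44) on all 50 arrays, whereas Cdh1, Vil1 and Cdx1 were above it on 0 arrays. Of 11 immune markers, 5 passed the filter used below and 4, the leukocyte marker Ptprc among them, were above it on 0 arrays. The genes of the introduced alleles were not analysed here.

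A gene was tested when its brightest probe set lay above the table's median on at least 10 arrays, which kept 12883 genes and 6 of the 9 ligands: Cxcl1, Cxcl10, Cxcl12, Cxcl14, Cxcl15 and Cxcl16. Cxcl2, Cxcl5 and Cxcl9 were above the median on 0 arrays with any probe set. A gene was called at an adjusted p under 0.05 (limma, Benjamini-Hochberg over all genes tested). All 17 probe sets were also tested among the 34945 without the filter.

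All 6 tested ligands were higher in the population with both alleles than in the vector control, but not all had their lowest mean in the one or their highest in the other. In mp53/Ras against bleo/Neo, all 6 tested ligands were called, all higher, beside 54.6% of all genes called in either direction. Their median difference was 1.63 on the log2 scale, against 0.01 over all genes tested. Of the 17 probe sets, 14 were called, all higher, beside 48.1% of all probe sets. Both groups were cultured alike, and in bulk RNA fewer cells of a type and less RNA per cell cannot be told apart.

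**Figure D1:**
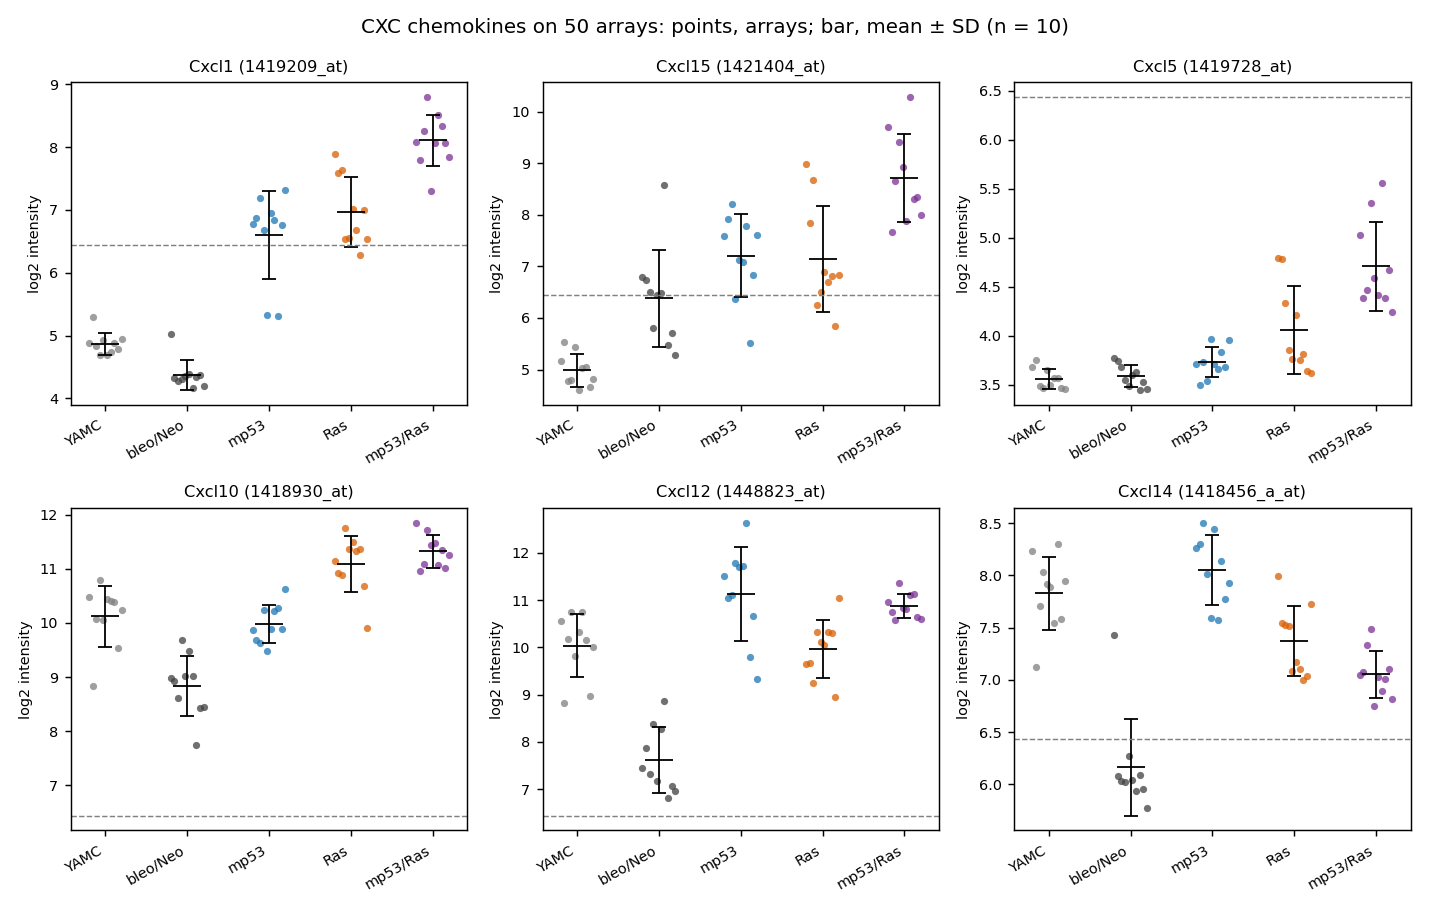
Log2 intensity of 6 ligands on every array of the 5 groups, with the mean ± SD (n = 10) as bars and the table's median (6.44) as a dashed line. Cxcl1, Cxcl15, Cxcl5 and Cxcl10 had their highest group mean in mp53/Ras, Cxcl12 and Cxcl14 in mp53.

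Among the neutrophil-attracting ligands, Cxcl1 had 3 probe sets. The one annotated with a RefSeq transcript, 1419209_at, spanned the wider range. Its lowest, median and highest values were 4.69, 4.86 and 5.30 in YAMC and 4.17, 4.33 and 5.02 in bleo/Neo. They were 5.32, 6.80 and 7.32 in mp53, 6.28, 6.83 and 7.89 in Ras, and 7.30, 8.08 and 8.80 in mp53/Ras. Every array of the 3 populations with an introduced allele lay above every array of YAMC and bleo/Neo. The 2 low mp53 arrays were replicates 8 and 5, at 5.32 and 5.33.

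Against bleo/Neo, 1419209_at was 2.23 ± 0.20 (SE) higher in mp53, 2.60 ± 0.20 higher in Ras and 3.73 ± 0.20 higher in mp53/Ras. In mp53/Ras this is a 13.3-fold difference of geometric means (adjusted p = 6.02e-22, limma, each probe set tested). It was 1.50 ± 0.20 higher in mp53/Ras than in mp53 and 1.14 ± 0.20 higher than in Ras, with adjusted p of 1.84e-08 and 1.53e-05, and the arrays overlapped in both comparisons. Ras and mp53 differed by 0.37 ± 0.20 (adjusted p = 0.156), so their order is not settled. Against YAMC the differences were 1.74, 2.10 and 3.24 in mp53, Ras and mp53/Ras, all called.

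The other Cxcl1 probe sets moved less. The brightest, 1457644_s_at, which stands for Cxcl1 in the test by gene, had means of 8.68 ± 0.26 (SD, n = 10) in mp53/Ras, 8.31 ± 0.36 in Ras and 8.33 ± 0.21 in mp53. The control means were 8.13 ± 0.17 in YAMC and 7.75 ± 0.21 in bleo/Neo. It was 0.92 ± 0.11 (SE) higher in mp53/Ras than in bleo/Neo, a 1.90-fold difference with no overlap of arrays. Against YAMC it was called in mp53/Ras (0.55 ± 0.11, adjusted p = 3.5e-05, limma), whereas the differences of 0.20 in mp53 and 0.18 in Ras were not called. Probe set 1441855_x_at was 0.65 ± 0.18 higher in mp53/Ras than in bleo/Neo, and its YAMC replicate 4 stood at 10.43 while the other YAMC arrays ended at 8.21. Its suffix, like that of 1457644_s_at, marks probes that can match more than 1 transcript. Over the 50 arrays, 1419209_at correlated with 1457644_s_at at r = 0.82 and with 1441855_x_at at r = 0.41. What sets the 3 probe sets apart was not tested.

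**Figure D2:**
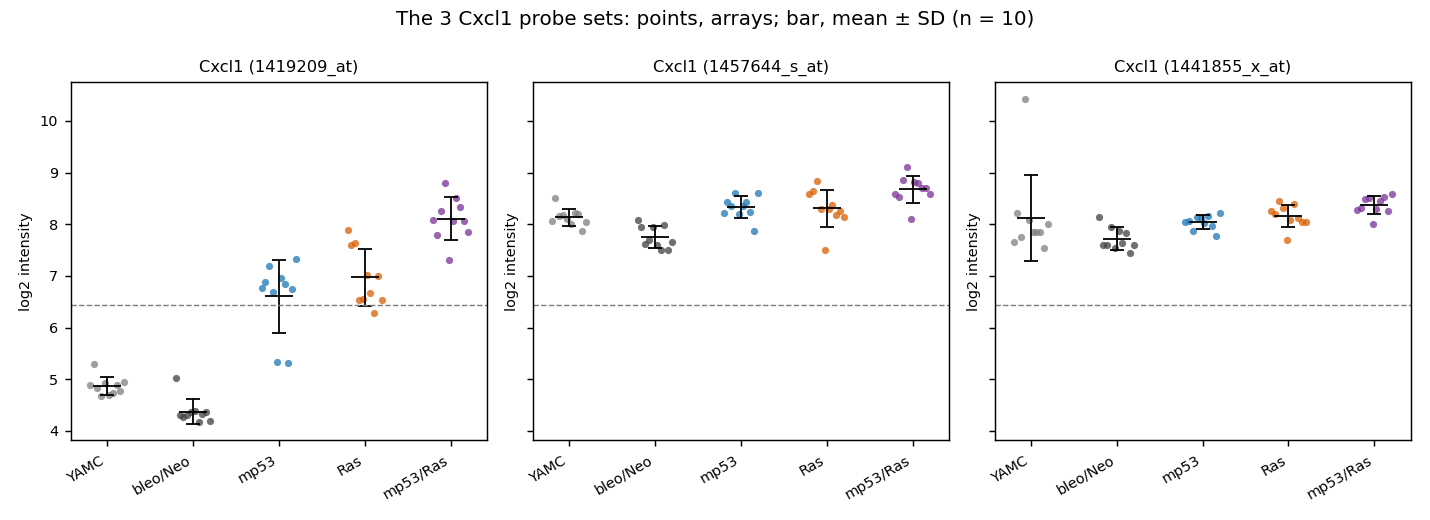
Log2 intensity of the 3 Cxcl1 probe sets on every array, on a shared axis, with mean ± SD (n = 10). The mean of 1419209_at ran from 4.37 in bleo/Neo to 8.11 in mp53/Ras, that of 1457644_s_at from 7.75 to 8.68 and that of 1441855_x_at from 7.72 to 8.37.

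Cxcl15, a neutrophil attractant known from the lung as lungkine, also had its highest mean in mp53/Ras, but its lowest in YAMC and not in the vector control. Its probe set 1421404_at had a lowest, median and highest value of 4.60, 4.92 and 5.54 in YAMC and of 5.28, 6.47 and 8.57 in bleo/Neo. In mp53 these were 5.52, 7.36 and 8.21, in Ras 5.85, 6.83 and 8.98, and in mp53/Ras 7.66, 8.51 and 10.29. All mp53/Ras and all Ras arrays lay above all YAMC arrays, whereas bleo/Neo overlapped every other group.

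Of the 6 tested ligands, Cxcl15 alone was higher in bleo/Neo than in YAMC, by 1.40 ± 0.35 (SE, adjusted p = 0.00132, limma). In mp53/Ras it was 2.34 ± 0.35 above bleo/Neo, 3.73 ± 0.35 above YAMC, 1.51 ± 0.35 above mp53 and 1.58 ± 0.35 above Ras, all called. Against bleo/Neo, mp53 differed by 0.83 (adjusted p = 0.0609, limma) and Ras by 0.76 (adjusted p = 0.0797). Without bleo/Neo replicate 7, at 8.57, the differences were 1.07 and 1.00 and both were called (adjusted p = 0.00974 and 0.0135). With that array kept, both were also called with the replicate number as a block (adjusted p = 0.0223 and 0.0331), and mp53 was called without the 4 arrays nearest another group (0.99, adjusted p = 0.0261) and with array weights (adjusted p = 0.0479). Over 12 alternatives the adjusted p ran from 0.00974 to 0.103 for mp53 and from 0.0135 to 0.194 for Ras. The second probe set, 1456428_at, was 0.75 ± 0.15 higher in mp53/Ras than in bleo/Neo and 0.88 ± 0.15 higher than in YAMC, both called. Between bleo/Neo and YAMC it differed by 0.12 ± 0.15 (adjusted p = 0.568, limma, each probe set tested).

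Cxcl5, the neutrophil attractant known as LIX, was dim. Its values in 1419728_at were 3.46, 3.54 and 3.76 (lowest, median and highest) in YAMC, 3.45, 3.58 and 3.77 in bleo/Neo and 3.50, 3.72 and 3.97 in mp53. In Ras they were 3.62, 3.83 and 4.80, and in mp53/Ras 4.24, 4.53 and 5.56. All 10 mp53/Ras arrays lay above all arrays of YAMC, bleo/Neo and mp53, and overlapped Ras. The difference between mp53/Ras and bleo/Neo was 1.12 ± 0.13 (SE), a 2.17-fold difference (adjusted p = 2.62e-10, limma, each probe set tested), and that between mp53/Ras and Ras was 0.65 ± 0.13 (adjusted p = 0.000116). A difference on the log2 scale so near the floor of the table, which ended at 3.04, can understate the change.

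Cxcl2, the closest relative of Cxcl1 in this branch, stayed in the range from 3.82 to 4.38 on all 50 arrays. Its group means ran from 3.96 in YAMC to 4.17 in mp53/Ras, and none of its differences from bleo/Neo in mp53, Ras or mp53/Ras was called, the largest being -0.06 ± 0.05 in Ras. Against YAMC it was called at 0.20 ± 0.05 in mp53/Ras.

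In RefSeq's gene order for GRCm38.p6, these 4 genes lie in 1 run of consecutive protein-coding genes on chromosome 5: Cxcl5, Ppbp, Pf4, Cxcl3, Cxcl15, Cxcl1 and Cxcl2. Cxcl15 and Cxcl2 are thus the direct neighbours of Cxcl1. The other 3 genes of the run, Ppbp, Pf4 and Cxcl3, were above the table's median on 0 arrays. Promoter sequences, 300 bases around each start site, were taken from RefSeq (GRCm38.p6) for 7 of the 9 ligands. They are shown for the neighbours Cxcl1, Cxcl2 and Cxcl15, since their measured values differ in pattern over the groups, and for Cxcl10. The first 3 lie on the plus strand of chr5:90890995-90891294, chr5:90903649-90903948 and chr5:90794284-90794583, and Cxcl10 lies on the minus strand of chr5:92348840-92349139. Capitals mark matches on either strand to the kappaB motif, to AP-1 (TGANTCA), to the interferon-stimulated element ISRE (TTTC, any 2 bases, then TTTC), to GAS (TTCNNNGAA) or to the CRE core (TGACGTCA), and overlapping matches run together.
Cxcl1: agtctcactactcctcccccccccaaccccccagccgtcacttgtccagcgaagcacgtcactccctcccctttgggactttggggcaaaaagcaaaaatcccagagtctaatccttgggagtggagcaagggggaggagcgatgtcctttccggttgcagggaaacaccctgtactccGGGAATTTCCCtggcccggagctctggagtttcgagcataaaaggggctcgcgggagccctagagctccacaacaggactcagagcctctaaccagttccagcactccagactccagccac
Cxcl2: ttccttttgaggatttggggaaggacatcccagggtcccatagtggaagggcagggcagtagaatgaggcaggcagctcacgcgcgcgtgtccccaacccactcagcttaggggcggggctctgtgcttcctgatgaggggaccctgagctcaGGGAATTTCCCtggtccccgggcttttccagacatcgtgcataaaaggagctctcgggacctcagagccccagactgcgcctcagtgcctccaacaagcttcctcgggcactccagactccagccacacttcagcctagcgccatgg
Cxcl15: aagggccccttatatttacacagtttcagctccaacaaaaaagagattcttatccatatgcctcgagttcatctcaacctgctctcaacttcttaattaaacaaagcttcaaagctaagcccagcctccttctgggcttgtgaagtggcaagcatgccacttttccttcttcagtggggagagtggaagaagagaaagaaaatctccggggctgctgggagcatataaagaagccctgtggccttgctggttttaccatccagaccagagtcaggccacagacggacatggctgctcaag
Cxcl10: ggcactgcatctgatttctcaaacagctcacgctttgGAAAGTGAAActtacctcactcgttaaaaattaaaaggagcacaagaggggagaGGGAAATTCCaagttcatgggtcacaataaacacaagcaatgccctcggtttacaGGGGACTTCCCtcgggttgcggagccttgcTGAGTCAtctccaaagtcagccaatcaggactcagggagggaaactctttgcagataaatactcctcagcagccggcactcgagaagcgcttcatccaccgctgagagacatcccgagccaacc

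The Cxcl1 and Cxcl2 promoters hold the same kappaB stretch, GGGAATTTCCC, from position -71 to -61 of the Cxcl1 start and from -97 to -87 of the Cxcl2 start. Of these 2 ligands only Cxcl1 was called above bleo/Neo. Cxcl2 was above the table's median on 0 arrays, so a lack of response and a signal too dim to measure cannot be told apart. None of the 5 motifs matched in the Cxcl15 window. The Cxcl10 window held 2 kappaB stretches (GGGAAATTCC at -159 to -150 and GGGGACTTCCC at -104 to -94), an AP-1 match (TGAGTCA) and an ISRE match (GAAAGTGAAA). Of the windows not shown, that of Cxcl9 held only an AP-1 match (TGACTCA). The Cxcl14 window held a GAS match (TTCTGAGAA) and an ISRE match (GAAACAGAAA), and the Cxcl12 window held no match. Over 32851 RefSeq promoters, 8.46% held the kappaB motif, 7.81% AP-1, 3.44% ISRE, 8.30% GAS and 1.79% the CRE core. A match describes letters and is not evidence of binding.

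Of the interferon-induced ligands, Cxcl10 was bright and Cxcl9 dim. Cxcl10 (1418930_at) had a lowest, median and highest value of 8.84, 10.31 and 10.80 in YAMC and of 7.75, 8.95 and 9.69 in bleo/Neo. It stood at 9.48, 9.89 and 10.63 in mp53, at 9.91, 11.24 and 11.75 in Ras and at 10.96, 11.31 and 11.85 in mp53/Ras. All mp53/Ras arrays lay above all arrays of YAMC, bleo/Neo and mp53, and Ras and mp53/Ras overlapped. The lowest Ras array was replicate 10 and the highest mp53 array was replicate 10, which are among the arrays nearest another group.

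Against bleo/Neo, Cxcl10 was 1.14 ± 0.20 (SE) higher in mp53, 2.25 ± 0.20 higher in Ras and 2.49 ± 0.20 higher in mp53/Ras (adjusted p = 3.57e-15, limma). It was 1.29 ± 0.20 lower in bleo/Neo than in YAMC, and the differences from YAMC were smaller: Ras was 0.96 and mp53/Ras 1.20 higher, both called, and mp53 differed by -0.14 (adjusted p = 0.652), or by -0.40 without the 4 arrays nearest another group (adjusted p = 0.0735). With array weights the difference of mp53 from YAMC was -0.43 and was called (adjusted p = 0.0214, limma). Ras lay 1.11 ± 0.20 above mp53, and over 12 alternatives this difference ran from 1.08 to 1.35. Between mp53/Ras and Ras the difference was 0.24 ± 0.20 (adjusted p = 0.434). The order of Ras and mp53/Ras is thus not settled for Cxcl10.

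Cxcl9 had 2 probe sets, which ran from 4.10 to 5.12 and from 5.20 to 6.23 over the 50 arrays. In mp53/Ras, 1456907_at was 0.20 ± 0.08 above bleo/Neo and 0.46 ± 0.08 above YAMC, both called, and 1418652_at was 0.20 ± 0.09 above bleo/Neo (adjusted p = 0.0747, limma, each probe set tested) and 0.30 ± 0.09 above YAMC, which was called. In RefSeq's order only Art3 lies between Cxcl9 and Cxcl10.

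Cxcl12 was high in every group except the vector control. Probe set 1448823_at stood at 8.83, 10.17 and 10.75 (lowest, median and highest) in YAMC and at 6.81, 7.39 and 8.87 in bleo/Neo. The values were 9.33, 11.31 and 12.64 in mp53, 8.94, 10.08 and 11.04 in Ras, and 10.57, 10.82 and 11.37 in mp53/Ras. The bleo/Neo arrays lay below all arrays of mp53, Ras and mp53/Ras. The lowest mp53 array and the highest Ras array were both replicate 10.

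Cxcl12 was 3.51 ± 0.29 (SE) higher in mp53 than in bleo/Neo, an 11.4-fold difference (adjusted p = 2.13e-14, limma), 2.35 ± 0.29 higher in Ras and 3.26 ± 0.29 higher in mp53/Ras. It was 2.41 ± 0.29 lower in bleo/Neo than in YAMC. Against YAMC it was 1.10 ± 0.29 higher in mp53 and 0.84 ± 0.29 higher in mp53/Ras, both called, while Ras differed by -0.06 (adjusted p = 0.88). Ras lay 1.16 ± 0.29 below mp53, and mp53/Ras lay 0.90 ± 0.29 above Ras (adjusted p = 0.0203). The means of mp53 and Ras were 11.13 and 9.97, and without the 4 arrays nearest another group they were 11.52 and 9.85. Over 12 alternatives the difference of Ras from mp53 ran from -1.67 to -0.84. The difference between mp53/Ras and mp53 was -0.26 ± 0.29 (adjusted p = 0.491). Without the 4 arrays nearest another group it was -0.65 ± 0.24 and was called (adjusted p = 0.0237), and over 12 alternatives the adjusted p ran from 0.0135 to 0.514.

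The second Cxcl12 probe set, 1417574_at, gave 3.99, 2.67 and 3.73 in mp53, Ras and mp53/Ras against bleo/Neo, with bleo/Neo below YAMC by 2.53 and no overlap of arrays. Between mp53/Ras and mp53 it differed by -0.26 (adjusted p = 0.413, limma, each probe set tested). Without the 4 arrays nearest another group this was -0.63 and was called (adjusted p = 0.00651). The third, 1439084_at, stayed between 6.13 and 6.86 on all arrays and was 0.22 lower in mp53 and 0.26 lower in Ras than in bleo/Neo, both called. Cxcl12 is known as a product of stromal cells. Of 9 fibroblast markers, 5 passed the filter and 3 were never above the median, among them Fap and Thy1. The summed linear intensity of the 9 ran from 27456 to 44376 in YAMC and from 20163 to 32350 in bleo/Neo. It ran from 16161 to 48509 in mp53, from 10432 to 29962 in Ras and from 16488 to 23314 in mp53/Ras. Against bleo/Neo, 2 of the 5 were higher and 1 was lower in mp53, 1 was higher and 2 lower in Ras, and 2 were higher and 2 lower in mp53/Ras. The shares of all genes called were 35.4%, 41.1% and 54.6% in these comparisons. Col1a2 was 4.37, 3.40 and 3.72 higher, and Dcn differed by -0.88, -2.07 and -2.23, in mp53, Ras and mp53/Ras. Their part in the Cxcl12 values was not tested.

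The receptors of the ligands were mostly dim. Cxcr2, Cxcr4 and Cxcr6 were above the table's median on 0 arrays. Cxcr3 was above it on all 50 arrays, between 7.04 and 7.82, and was not called in mp53, Ras or mp53/Ras against bleo/Neo. Of 8 listed receptors, 7 had a probe set and 3 were tested. In Ras and in mp53/Ras against bleo/Neo, 1 of these 3 was higher, Ackr3, and 1 was lower, Ackr1, an atypical receptor of inflammatory chemokines, by 0.28 and 0.40. Of all genes, 41.1% and 54.6% were called in these comparisons. No YAMC or bleo/Neo array of Ackr3 reached the table's median. Ackr3 passed the filter through arrays of Ras and mp53/Ras and mp53 replicate 10, so its being counted here partly follows from the filter.

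Ackr3, which binds Cxcl12 and carries it into the cell, separated the groups along the Ras allele. Its lowest, median and highest values were 3.85, 4.34 and 4.58 in YAMC and 4.01, 4.07 and 4.22 in bleo/Neo. In mp53 they were 4.10, 4.65 and 7.22, in Ras 4.84, 7.46 and 7.84, and in mp53/Ras 6.73, 7.57 and 8.25. The mp53 array at 7.22 and the Ras array at 4.84 were both replicate 10. Against bleo/Neo, Ackr3 was 3.17 ± 0.26 (SE) higher in Ras and 3.52 ± 0.26 higher in mp53/Ras (adjusted p = 9.64e-17, limma). In mp53 it was 0.71 ± 0.26 higher, and without replicate 10 of mp53 and of Ras this was 0.44 ± 0.13, also called. In mp53, Cxcl12 thus had its highest group mean while Ackr3, outside replicate 10, stayed below all mp53/Ras arrays.

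**Figure D3:**
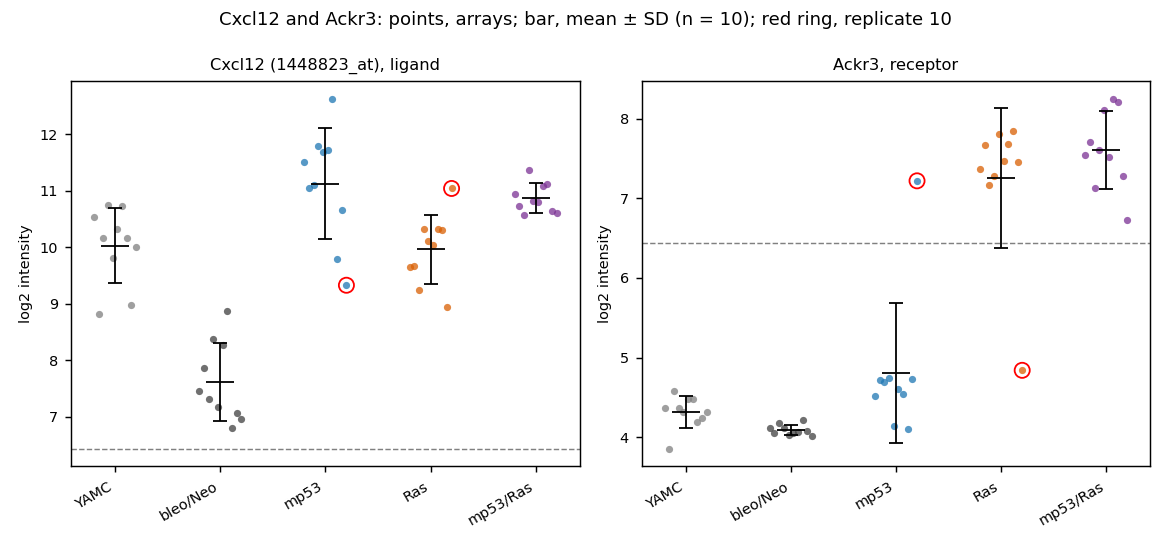
Log2 intensity of Cxcl12 (1448823_at) and of its atypical receptor Ackr3 on every array, with mean ± SD (n = 10), the table's median as a dashed line and red rings around replicate 10 of mp53 and of Ras. Both ringed arrays lie outside the other 9 of their group in each panel.

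Cxcl14, which in epithelia is expressed without inflammation, was the only tested ligand called lower in mp53/Ras than in mp53 with all arrays. Its probe set 1418456_a_at had a lowest, median and highest value of 7.13, 7.90 and 8.30 in YAMC and of 5.77, 6.04 and 7.43 in bleo/Neo. The values were 7.57, 8.08 and 8.51 in mp53, 6.997, 7.35 and 7.998 in Ras, and 6.75, 7.04 and 7.48 in mp53/Ras. All mp53/Ras arrays lay below all mp53 arrays. Only bleo/Neo replicate 1, at 7.43, reached the range of the populations with Ras, and the other 9 bleo/Neo arrays ended at 6.27.

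Cxcl14 was 1.89 ± 0.15 (SE) higher in mp53 than in bleo/Neo, 1.21 ± 0.15 higher in Ras and 0.89 ± 0.15 higher in mp53/Ras (adjusted p = 1.76e-06, limma). Against YAMC it was 0.46 ± 0.15 lower in Ras and 0.77 ± 0.15 lower in mp53/Ras, both called, so the direction in this probe set depends on the baseline. Its mean was 7.05 ± 0.22 (SD, n = 10) in mp53/Ras and 8.05 ± 0.33 in mp53 (adjusted p = 3.11e-07, limma). The difference between mp53/Ras and Ras was -0.32 ± 0.15 (adjusted p = 0.128). Cxcl14 was called lower in mp53/Ras than in Ras with array weights (-0.38, adjusted p = 0.00975, limma) and with only the compared groups in the fit (adjusted p = 0.0485). Its second probe set, 1418457_at, was 1.19, 0.75 and 0.86 higher in mp53, Ras and mp53/Ras than in bleo/Neo, all called, and differed by -0.33 between mp53/Ras and mp53 (adjusted p = 0.119). Against YAMC it differed by -0.26 in Ras (adjusted p = 0.238) and by -0.15 in mp53/Ras (adjusted p = 0.474), neither called.

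Cxcl16 varied over a narrow range. Probe set 1418718_at had group means of 8.79 ± 0.20 (SD, n = 10) in mp53/Ras, 8.77 ± 0.20 in Ras and 8.50 ± 0.22 in mp53, with 8.65 ± 0.23 in YAMC and 8.20 ± 0.24 in bleo/Neo. It was 0.30, 0.57 and 0.59 higher in mp53, Ras and mp53/Ras than in bleo/Neo, all called with overlapping arrays, and 1449195_s_at gave 0.24 (not called), 0.58 and 0.61. Against YAMC none of these populations was called for either probe set. Of the enzymes that cleave chemokines, 5 of 8 were tested. In mp53/Ras against bleo/Neo 1 was higher, the gelatinase Mmp2, by 2.33 ± 0.10, and 0 were lower, while Adam10, a sheddase of Cxcl16, differed by -0.11 (adjusted p = 0.254, limma). Against YAMC, 1 of the 5 was higher and 4 were lower in mp53/Ras, and 0 were higher and 3 lower in Ras. Of all genes, 54.6% were called in mp53/Ras against bleo/Neo. Against YAMC the shares were 57.8% in mp53/Ras and 42.7% in Ras.

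**Figure D4:**
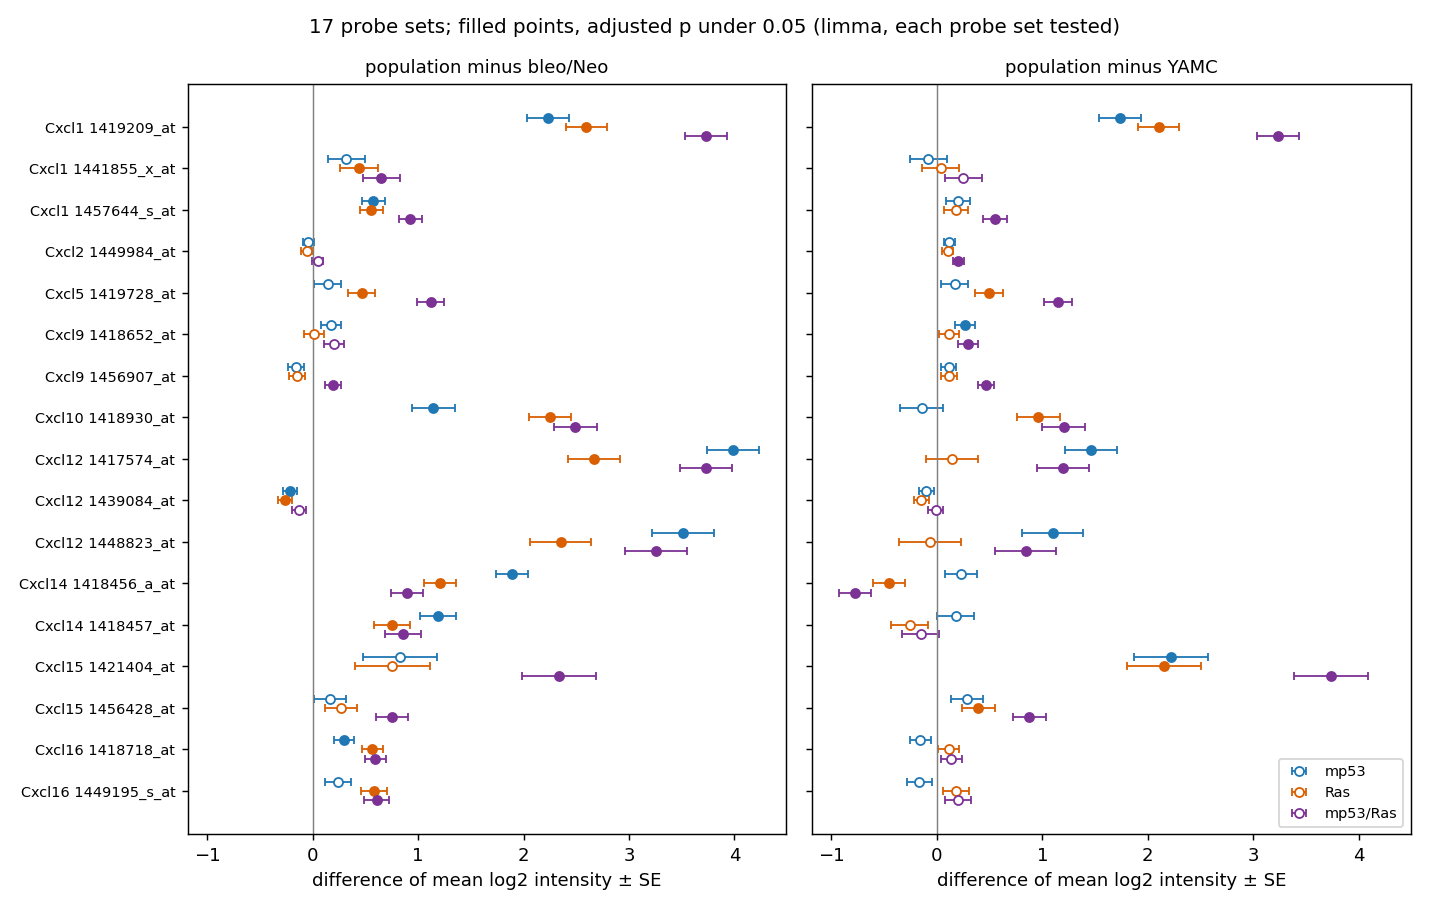
Difference of mean log2 intensity ± SE for the 17 probe sets in mp53, Ras and mp53/Ras, against bleo/Neo on the left and against YAMC on the right, with filled points for an adjusted p under 0.05. Against bleo/Neo 14 of 17 probe sets were called higher in mp53/Ras, and Cxcl14 (1418456_a_at) lay above zero against bleo/Neo and below it against YAMC in Ras and mp53/Ras.

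The counts over the ligands differ with the baseline, and bleo/Neo itself differed from YAMC. In that comparison all 6 tested ligands were called, 1 higher and 5 lower, beside 37.4% of all genes, and 12 of 17 probe sets, beside 34.8% of all. Against bleo/Neo, 5 of 6 ligands were called in mp53, all higher, beside 35.4% of genes, and 5 in Ras, all higher, beside 41.1%. By probe set these were 9 of 17 in mp53, 8 higher and 1 lower, beside 34.2%, and 12 of 17 in Ras, 11 higher and 1 lower, beside 39.2%. Against YAMC, 2 ligands were called in mp53, both higher, beside 22.9% of genes. In Ras 3 were called, 2 higher and 1 lower, beside 42.7%. In mp53/Ras 5 were called, 4 higher and 1 lower, beside 57.8%, and the shares were not compared by a test. By probe set the counts against YAMC were 5 of 17 in mp53 beside 25.5%, 6 in Ras beside 39.2% and 12 in mp53/Ras beside 51.1%. Since these comparisons share their control arrays, the counts are not independent of each other.

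Between the populations with introduced alleles, mp53/Ras differed from mp53 in 5 of 6 ligands, 4 higher and 1 lower, beside 47.1% of genes called, and in 10 of 17 probe sets beside 42.1%. It differed from Ras in 3 ligands, Cxcl1, Cxcl12 and Cxcl15, all higher, beside 21.6% of genes, and in 8 of 17 probe sets, all higher, beside 24.9%. Ras differed from mp53 in 4 ligands, with Cxcl10 and Cxcl16 higher and Cxcl12 and Cxcl14 lower, beside 32.9% of genes, and in 8 probe sets, 4 in each direction, beside 31.3%.

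The design asks whether both alleles together do more than the sum of each. On the log2 scale the non-additive term is mp53/Ras minus mp53 minus Ras plus the baseline, and a negative value means less than the product of the 2 fold changes. With bleo/Neo as the baseline, 3 of 6 ligands were called, all negative, beside 23.9% of genes: Cxcl12 at -2.61 ± 0.41 (SE, adjusted p = 2.62e-06, limma), Cxcl14 at -2.21 ± 0.21 (adjusted p = 8.17e-12) and Cxcl10 at -0.90 ± 0.29 (adjusted p = 0.0164). By probe set 9 of 17 were called, 6 negative and 3 positive, beside 26.7%, among them Cxcl1 (1419209_at) at -1.09 and Cxcl5 at 0.51. With YAMC as the baseline, 0 of 6 ligands were called by limma, beside 12.4% of genes, and 1 of 6 (Cxcl14) had an unadjusted p under 0.05. By probe set 0 of 17 were called, beside 18.7%, and 5 had an unadjusted p under 0.05. Without the 4 arrays nearest another group, the term over YAMC for Cxcl1 (1419209_at) was -0.77 and was called (adjusted p = 0.0275), in place of -0.60 (adjusted p = 0.131). Both terms share 3 groups and differ only in the baseline.

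On the linear scale, a gene called higher in mp53/Ras than in bleo/Neo was counted as cooperative when the mean intensities of mp53 and Ras summed to at most 0.9 of that of mp53/Ras. This is a description without a test. By gene, 24 of 3438 higher genes met it (0.698%), among them 1 ligand, Cxcl15, with mean intensities of 499 in mp53/Ras, 167 in mp53 and 182 in Ras, a ratio of 0.698. By probe set, 45 of 8619 met it (0.522%), among them Cxcl15 (1421404_at) and Cxcl1 (1419209_at), the latter with 286, 106 and 134 and a ratio of 0.843. The probe set that stands for Cxcl1 in the test by gene had a ratio of 1.57, and the second Cxcl15 probe set one of 1.32. Cxcl5 had a ratio of 1.12 and Cxcl10 one of 1.27. At the other end, Cxcl14 had a ratio of 3.29. Its mean intensity was 134 in mp53/Ras, below the 272 in mp53 and the 170 in Ras. The rule removes no baseline, so the control level is counted in both terms of the sum. A probe set with means near its control level can miss 0.9 for that reason alone. Cxcl5 had a mean of 27.5 with both alleles, 17.4 with RasV12 alone, 13.4 with p53175H alone and 12.1 with empty vectors. For the second Cxcl15 probe set these means were 156, 108, 97.7 and 87.0. A rule on the excess over the control was not tested.

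**Figure D5:**
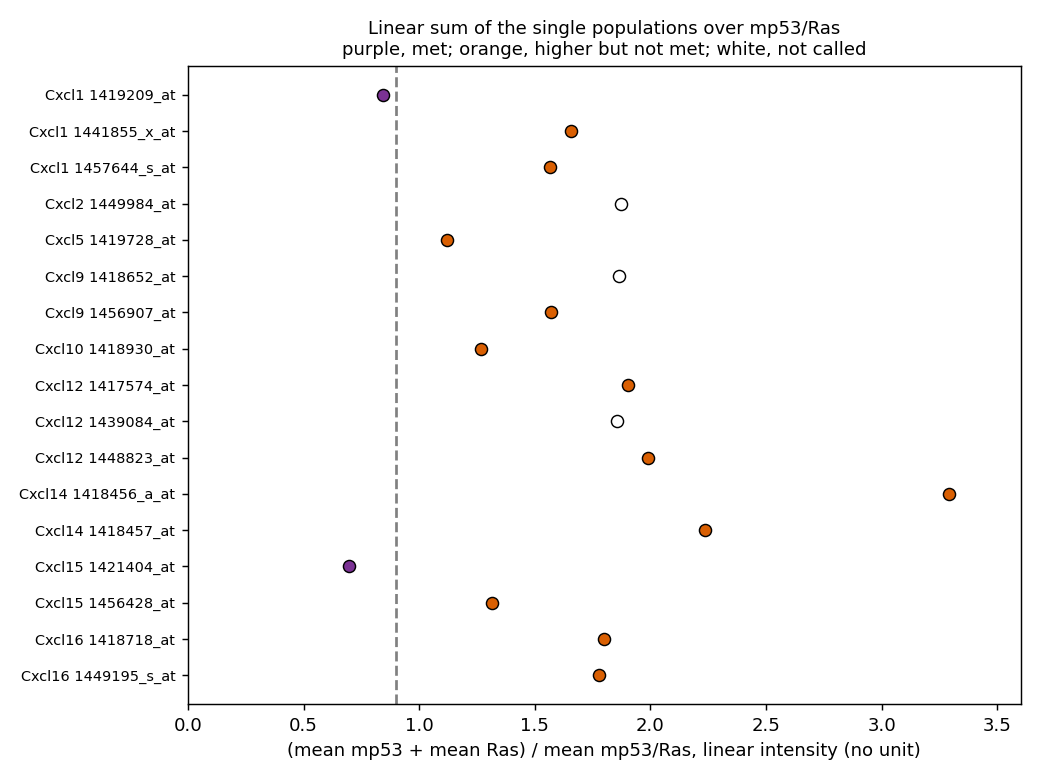
Sum of the mean linear intensities of mp53 and Ras divided by that of mp53/Ras for the 17 probe sets, with a dashed line at 0.9. Cxcl15 (1421404_at, 0.698) and Cxcl1 (1419209_at, 0.843) lie left of the line, and the other 15 lie right of it, up to 3.29 for Cxcl14.

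Within the neutrophil-attracting branch, Cxcl1, Cxcl5 and Cxcl15 correlated with each other over the arrays and Cxcl2 less so. Over 50 arrays, Cxcl15 correlated with Cxcl5 at r = 0.81 and with Cxcl1 (1419209_at) at r = 0.78, and after subtraction of group means at 0.66 and 0.55. Cxcl2 correlated with Cxcl15 at 0.40, with Cxcl5 at 0.33 and with Cxcl1 (1419209_at) at 0.26, and after subtraction at 0.04, 0.09 and 0.03. Since Cxcl2 ran only from 3.82 to 4.38, near the floor, low correlations cannot show that it is regulated apart. The brightest Cxcl1 probe set, 1457644_s_at, correlated with Cxcl5 at 0.69, with Cxcl15 at 0.57 and with Cxcl2 at 0.33. After subtraction these were 0.42, 0.31 and 0.39, so by this probe set Cxcl2 did not stand apart within groups. Cxcl10 and Cxcl1 (1419209_at) correlated at 0.74 over all arrays and at -0.03 after that subtraction. These are descriptions over arrays that share groups and normalisation.

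The genes most like Cxcl1 (1419209_at) over the 50 arrays, a probe set chosen for this list after its values were seen, were Sphk1, the kinase that makes sphingosine 1-phosphate, at r = 0.96, Bcl3, a nuclear co-regulator of the kappaB family, at 0.94, and Tbl1xr1 at 0.93. In mp53/Ras against bleo/Neo, Sphk1 was 1.85 ± 0.11 (SE) higher, Bcl3 1.47 ± 0.10 and Tbl1xr1 1.16 ± 0.10. Most like Cxcl10 were S100a4 (r = 0.94), Emp1 (0.93) and Clca3a1 (0.92), and after subtraction of group means Mitd1 (0.84), the interferon-stimulated exonuclease Isg20 (0.83) and Gpx8 (0.82). Cxcl12 was most like Hspb6 (0.91), Ptn and Fhl2 (both 0.90). Cxcl14 was most like Gli2 (0.90), Esr1 (0.89) and H2-Q5 (0.87), and Gli2 also stood among its nearest 3 after subtraction (0.73). For Cxcl15 they were Sh3pxd2b (0.86), Tmem176a (0.84) and Cdc25b (0.82), and after subtraction Selenop (0.73), Lgals2 (0.70) and Daam2 (0.65). Lgals2 was also nearest to Cxcl1 (1419209_at) after subtraction (0.70). For Cxcl16 and for Cxcl1 by its brightest probe set no gene exceeded 0.82.

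Cxcl1, Cxcl2 and Cxcl10 are textbook targets of NF-kappaB. Of its 13 tested subunits and inhibitors, 3 were higher and 3 lower in mp53/Ras than in bleo/Neo, beside 54.6% of all genes called. The higher ones were Bcl3 (1.47), Nfkbiz, an inducible nuclear co-activator (1.42), and the feedback inhibitor Tnfaip3 (0.50), and the lower ones included the kinase Ikbke (-1.49). In Ras the counts were also 3 and 3, beside 41.1% of all genes, with Nfkbiz at 1.34, Bcl3 at 0.86 and Ikbke at -0.42. The list's median difference was 0.01 in mp53/Ras, as was that of all genes.

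Of 15 tested cytokine, enzyme and adhesion genes induced by NF-kappaB, 8 were higher and 1 was lower in mp53/Ras than in bleo/Neo, and the same numbers held in Ras. The called share was not far from that of all genes in mp53/Ras (54.6%) and above it in Ras (41.1%), without a test of the list. Their median difference was 0.28 in mp53/Ras and 0.27 in Ras. Ptgs2, the inducible prostaglandin synthase, was 3.97 ± 0.24 (SE) higher in mp53/Ras and 3.45 higher in Ras. Il6 was 2.63 and 2.36 higher, Vcam1 2.38 and 2.00 higher, and Ccl7 1.00 and 1.38 higher. Icam1 was 0.85 lower in mp53/Ras. The cytokines Tnf and Il1b, which induce these ligands, were not called: in mp53/Ras they differed by -0.07 (adjusted p = 0.39, limma) and 0.20 (adjusted p = 0.0551), and in Ras by 0.11 and 0.10.

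Among 14 tested interferon signal transducers, 5 were higher and 2 lower in mp53/Ras, and 5 higher and 1 lower in Ras, which are shares near those of all genes (54.6% and 41.1%). Stat2 was 0.41 higher in mp53/Ras and 0.49 in Ras, Ifngr1 0.34 in both, and Socs1 0.23 and 0.33. Jak2 was 0.37 higher in Ras. Among 13 tested interleukin-1, TNF and Toll-like receptors with their adaptors, 4 were higher and 6 lower in mp53/Ras, beside 54.6% of all genes called. Tlr2 differed by -1.22, Irak2 by 1.05, Tnfrsf1b by 0.76 and Il1rap by -0.49. Of the 6 other CXC ligands, 2 were tested, and Cxcl17 was 0.99 ± 0.12 lower in mp53/Ras than in bleo/Neo while Cxcl13 was not called. Immune markers, of which 5 of 11 passed the filter, had a summed linear intensity from 1115 to 1398 in mp53/Ras and from 1364 to 3059 in bleo/Neo, and the corresponding ranges of the epithelial markers were 13778 to 17010 and 9682 to 14415.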

How the data were processed

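The authors deposited linear intensity values, 1 for each of the probe sets on each of 50 arrays. The submitters' processing notes name RMA, without a version; how its log scale was undone is not given in the sources used here. Of 45101 probe sets, 64 were blank and 45037 had values. Symbols came from the platform annotation, updated through gene numbers (34741 of 34945 matched); 932 probe sets with several symbols and 9160 with none were left out. Intensities were taken to log2 without an offset. Per gene the probe set with the highest mean was kept. limma 3.58.1 in R 4.3.3 fitted 1 mean per group over all 50 arrays with an intensity trend, for 12 comparisons, and was tested on simulated data; all 34945 probe sets were fitted likewise. Alternatives were a replicate block, an offset, no trend, cyclic loess, array weights, no filter, means over probe sets, fits of the compared groups alone and left-out arrays. Named genes were all 9 ligands, their 5 receptors Cxcr2, Cxcr3, Cxcr4, Cxcr6 and Ackr3, up to 4 called genes with the largest difference per pathway list, and the 3 most correlated genes per called ligand; list members named outside this rule (Icam1, Jak2, Tnf, Il1b, Mmp2, Adam10, Ackr1, Cxcl17, Cxcl13, Ppbp, Pf4, Cxcl3 and the markers) and Cxcl1 (1419209_at) among the ligands compared with other genes were chosen after their values were seen. The members and lists were chosen with earlier results of these data known. No 2 arrays were identical. Arrays have no read depth, and their number limits the precision.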

Additional observations from a re-analysis of the deposited data

Results flagged for a closer look

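Of 85 combinations of probe set and group, 8 had 1 array that stood apart from the other 9 by Dixon's test; chance gives about 1 in 20. Replicate 1 of bleo/Neo was high for Cxcl1 (1419209_at, 5.02), Cxcl14 (1418456_a_at, 7.43) and Cxcl9 (1418652_at, 5.12). Replicate 7 of bleo/Neo was high for Cxcl15 (1421404_at, 8.57). YAMC replicate 2 was high for Cxcl1 (1419209_at, 5.30) and YAMC replicate 4 for Cxcl1 (1441855_x_at, 10.43). Ras replicate 5 was low for Cxcl1 (1457644_s_at, 7.51), and mp53 replicate 5 was high for Cxcl9 (1418652_at, 5.02).

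The non-additive term over bleo/Neo was called for 9 of 17 probe sets, beside 26.7% of all. Over YAMC it was called for 0 of 17, beside 18.7%. The 2 terms differ only in the baseline, so a joint effect of the alleles and the level of bleo/Neo cannot be told apart. Over bleo/Neo the term was negative for Cxcl10 (-0.90), Cxcl12 (-2.61, and -2.93 in 1417574_at), Cxcl14 (-2.21, and -1.08 in 1418457_at) and Cxcl1 (1419209_at, -1.09). It was positive for Cxcl5 (0.51), Cxcl9 (1456907_at, 0.51) and the third Cxcl12 probe set (1439084_at, 0.35). The causes were not tested.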

How the results depend on the processing

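Over all alternatives, 1290 of 1344 differences of single ligands or probe sets kept their direction and their side of the threshold, 34 became called, 7 lost the call and 13 changed sign, all of them uncalled under both settings. Those 13 were Cxcl16 in mp53/Ras against Ras (-0.016 without replicate 10 of mp53 and of Ras and also without all 4 arrays nearest another group, -0.061 with array weights), Cxcl1 in Ras against mp53 (0.030, 0.023 and 0.042 in the same order, 0.16 with the mean of its probe sets), Cxcl15 in Ras against mp53 (0.0066 without both replicates 10, in either fit, and 0.018 with the mean), Cxcl12 (1417574_at) in Ras against YAMC (-0.025 without the 4 arrays, -0.14 with weights) and Cxcl1 for the term over YAMC (-0.045 with the mean). Over the settings that left out arrays, these comparisons ended at 0.027 for Cxcl16, -0.019 for Cxcl1, -0.20 for Cxcl15 and 0.14 for Cxcl12 (1417574_at) on the other side of zero. Counts of called ligands moved as follows. With each probe set tested, mp53 against YAMC gave 4 in place of 2, Ras against YAMC 5 in place of 3, mp53/Ras against YAMC 8 in place of 5, mp53/Ras against Ras 5 in place of 3, and the non-additive term over bleo/Neo 6 in place of 3. Here a ligand counted when any of its probe sets was called, out of 9 ligands against 6 in the main fit. Such counts can rise without a stronger signal. Of all probe sets, 25.5%, 39.2%, 51.1%, 24.9% and 26.7% were called, in the same order. Without the filter on dim genes, also out of 9 ligands, mp53/Ras against YAMC gave 8, mp53/Ras against Ras 5 and the term over bleo/Neo 5. Array quality weights gave 5 for the term over bleo/Neo and 2 for that over YAMC, in place of 0. Those 2 were Cxcl10 at 0.63 (adjusted p = 0.0207, limma) and Cxcl14 at -0.65 (adjusted p = 0.00329). For Cxcl10 the term was thus positive over YAMC, also in the main fit (0.39, not called), and negative over bleo/Neo. The replicate number as a block (replicate block) gave 1 for the term over YAMC, Cxcl14 at -0.54 (adjusted p = 0.0366, limma), and also called Cxcl15 in mp53 and Ras against bleo/Neo (adjusted p = 0.0223 and 0.0331). The labels tie the numbers to no shared culture or day, so the numbers were not taken as pairs. The data hint that equal numbers may share something. After subtraction of group means, 67 of 100 pairs with the same number in different groups correlated over 0.1, a count not made for pairs with unlike numbers. The median of the pairs with the same number was 0.19 against -0.02 for other pairs, and 23 of 50 arrays correlated best with their own number. The main fit leaves this out. By each probe set, chosen after seeing the data, the cooperation rule counted 2 ligands in place of 1, with and without replicate 10 of mp53 and of Ras. Leaving out bleo/Neo replicate 1 or 7, also chosen after seeing the data, gave 1 and 0 for the term over YAMC, with Cxcl14 at -0.54 called without replicate 1, and Cxcl1 (1419209_at) in bleo/Neo against YAMC was -0.47 without replicate 7 (adjusted p = 0.0707) in place of -0.49 (adjusted p = 0.0456). An offset of 32 before log2 lowered the term over bleo/Neo for Cxcl1 (1419209_at) to -0.36 (adjusted p = 0.203). With the mean of its probe sets, Cxcl1 was called above YAMC in mp53 (0.62) and Ras (0.77). Why these changed was not tested. Dim ligands (Cxcl2, Cxcl5, Cxcl9) are limited by the floor of the array, and no detection calls were used.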
